A study of Mus musculus with 6 samples.

Results

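The enzymes that build fatty acids and cholesterol, with the sensors and exporters that govern sterol levels, were followed as 31 genes in injured mouse lung. They were matched by symbol among the 26100 rows of the deposited count table, and all 31 were found once and passed the filter on low counts that left 16633 rows for testing. The lungs came from 3 mice lacking *Clec7a* (KO) and 3 wild-type mice (WT). *Clec7a* encodes dectin-1, a beta-glucan receptor of myeloid cells. All 6 mice had received bleomycin, a DNA-damaging drug, into the trachea, and whole lung was taken at day 14. The sources used here give neither the deleted stretch of the KO allele nor the strain, age or sex of the mice, and uninjured lungs were not analysed here.

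Fatty acid synthesis turns citrate into acetyl-CoA and malonyl-CoA, joins these into palmitate, and then lengthens and desaturates the chain. Cholesterol synthesis runs through mevalonate, farnesyl diphosphate, squalene and lanosterol. Enzymes of both routes are induced by the SREBP transcription factors, which the SCAP and INSIG proteins hold back when sterol is plentiful, whereas the oxysterol receptors called LXR induce sterol export by *Abca1* and *Abcg1*. In the lung, type 2 alveolar cells make lipid for surfactant, lipofibroblasts store it and macrophages clear it.

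Promoter sequence is shown for a pair of mevalonate-pathway genes and for *Nr1h3*, the LXR gene with the smallest p of the 31. Windows with and without the usual sterol-pathway boxes can thus be seen side by side. Each run is the 250 bases before an annotated start on the gene's own strand, from RefSeq on GRCm38.p6. They lie at chr13:119690101-119690350 on the plus strand for *Hmgcs1*, at chr13:8885356-8885605 on the plus strand for *Idi1*, and at chr2:91195117-91195366 on the minus strand for *Nr1h3*. Capitals mark matches, on either strand, to TCACNCCAC (core of the sterol regulatory element), CCAAT (the box bound by NF-Y), CACGTG (an E-box) or GGGCGG (the box bound by Sp1), and no matches overlap in these windows.
Hmgcs1: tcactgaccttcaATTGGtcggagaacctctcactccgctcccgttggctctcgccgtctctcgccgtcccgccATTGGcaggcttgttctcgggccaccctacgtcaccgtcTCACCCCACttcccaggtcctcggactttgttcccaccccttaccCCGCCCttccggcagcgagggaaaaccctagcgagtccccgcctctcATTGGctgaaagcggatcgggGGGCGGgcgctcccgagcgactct
Idi1: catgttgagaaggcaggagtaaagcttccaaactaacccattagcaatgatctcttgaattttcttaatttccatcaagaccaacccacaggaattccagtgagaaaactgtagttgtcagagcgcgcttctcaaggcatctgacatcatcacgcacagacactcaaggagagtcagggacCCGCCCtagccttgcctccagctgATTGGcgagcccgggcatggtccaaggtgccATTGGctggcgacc
Nr1h3: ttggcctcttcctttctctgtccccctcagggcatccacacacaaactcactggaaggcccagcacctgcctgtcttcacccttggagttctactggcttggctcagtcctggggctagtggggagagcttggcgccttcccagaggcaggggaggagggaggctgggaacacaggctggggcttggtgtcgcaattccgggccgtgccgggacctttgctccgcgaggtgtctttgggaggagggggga

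*Hmgcs1* held the sterol regulatory element core at position -137 from the start, CCAAT boxes at -237, -176 and -45, and Sp1 boxes at -92 and -24. *Idi1* held CCAAT boxes at -45 and -14 and an Sp1 box at -69. As annotated on GRCm38 that gene starts at chr13:8885501, so all of these *Idi1* boxes lie inside it. None of the 4 motifs was found in the *Nr1h3* window. A second listed window of that gene, at chr2:91195036-91195285, held none either. Both lie inside the gene as annotated on GRCm38, chr2:91184061-91202834, so sequence before its outermost start was not searched. Promoters were listed for 24 of the 31 genes, and for 8 of the 11 cholesterol synthesis genes. All 8 of those held a CCAAT box in at least 1 listed window, as did 37.5% of 27025 genes. By window these were 8 of 10, against 33.8% of all windows. The CCAAT boxes of *Dhcr7* lay only in its window at chr7:143829964-143830213, inside the annotated gene. All 8 also held an Sp1 box, against 35.4% of all genes. The sterol regulatory element core was found in 1 of the 24 genes, *Hmgcs1*, against 1.22% of all genes. An E-box was found in 6 of the 24 (25%), against 6.86% of all genes. These matches describe letters in a short window only.

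*Clec7a* itself read 3.60, 6.85 and 2.84 CPM (counts scaled to library size and composition) in KO lungs, against 60.6, 84.0 and 197 CPM in WT lungs. Which part of the gene those KO reads cover cannot be told from counts per gene. Libraries held 31052936 to 34451956 counts. The defining lung markers *Sftpc*, *Scgb1a1*, *Ager*, *Cldn18*, *Cldn5* and *Pecam1* were read in every library. KO replicate 1 and WT replicate 1 differed from the remaining libraries: Spearman correlations over tested genes were at most 0.947 for pairs with a first replicate and at least 0.959 for the other pairs. Mitochondrial genes took 7.34% of counts in KO replicate 1, against 2.69% to 3.87% in the other libraries. No batch is given in the labels.

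Most lipid synthesis genes read somewhat higher in KO lungs, but few stood clear of the spread between mice. The fold change was above 0 for 25 of the 31 genes, or 80.6%, against 49.0% of all tested genes. Its median was 0.31 on the log2 scale, against -0.01 over all tested genes. The mean log2 CPM of the 31, centred over the 6 libraries, was 0.32, -0.0777 and 0.25 in KO lungs, against 0.0101, -0.24 and -0.26 in WT lungs. KO replicate 2 lay below WT replicate 1, so the groups overlapped on that scale. No gene passed an adjusted p of 0.05 in edgeR's quasi-likelihood test with Benjamini-Hochberg adjustment, neither among the 31 nor among the 16633 tested (0%). At an unadjusted p under 0.05 there were 4 of the 31 (12.9%), all higher in KO, against 11.8% of all tested genes in either direction and 5.95% higher in KO. The KO and WT libraries did not overlap for 5 of the 31 (16.1%), 4 of them higher in KO, against 21.1% of all tested genes in either direction and 9.81% higher in KO. Over both directions these shares lie near those of the whole transcriptome. The share higher in KO was above it, at 12.9% against 5.95% for the unadjusted p, and that difference was not tested. DESeq2 called *Nr1h3* alone among the 31, higher in KO, against 3.64% of the 18630 genes it tested in either direction and 1.91% higher in KO.

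**Figure D1:**
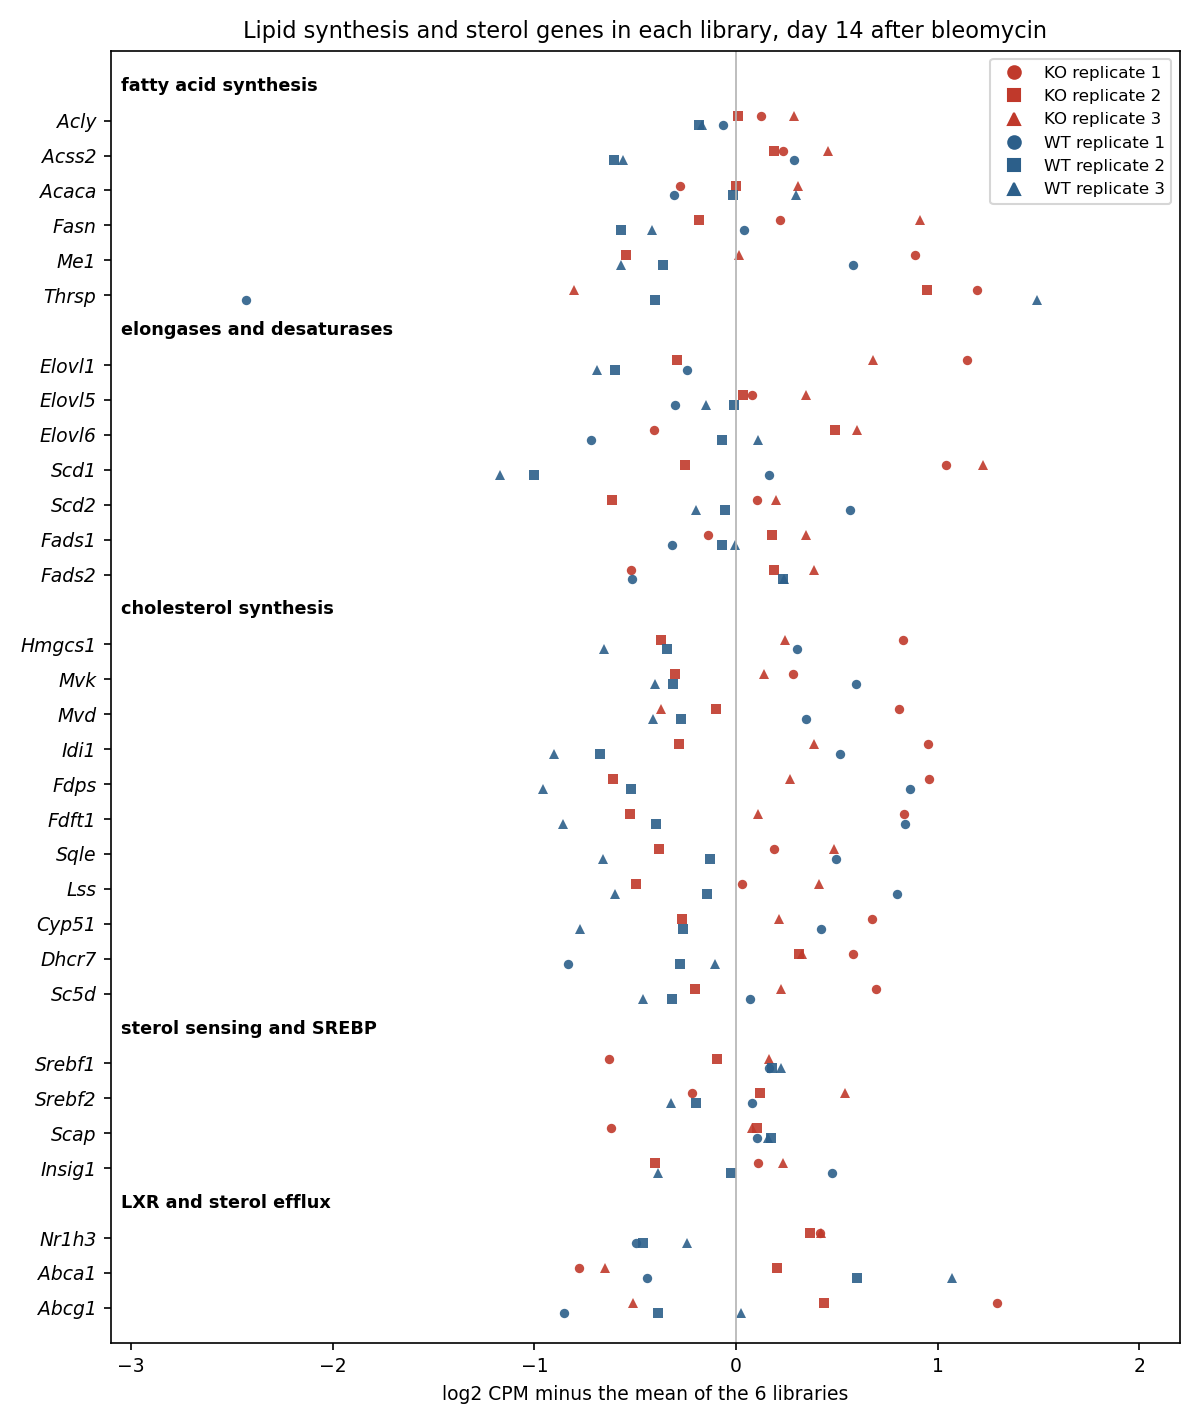
Log2 CPM of each of the 31 genes in each library, minus the mean of the 6 libraries, with KO in red, WT in blue and marker shape for the replicate. KO points lie right of WT points without overlap for *Acly*, *Elovl5*, *Dhcr7* and *Nr1h3*, and left of them for *Srebf1*.

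In the first steps, which supply acetyl-CoA and build palmitate, all 6 genes had fold changes above 0, with a median of 0.32 on the log2 scale, and none had an unadjusted p under 0.05. *Acly*, the ATP-citrate lyase that makes cytosolic acetyl-CoA, read 198.5, 183.0 and 221.9 CPM in KO lungs, against 174.0, 160.0 and 161.7 CPM in WT lungs. The lowest KO library lay above the highest WT library. Its log2 fold change was 0.28 ± 0.17 (SE), with an edgeR adjusted p of 0.562. *Fasn*, the fatty acid synthase that assembles palmitate, read 308.9, 233.4 and 499.8 CPM in KO lungs, against 272.1, 178.6 and 198.9 CPM in WT lungs. Its groups overlapped, KO replicate 3 was highest, and the log2 fold change was 0.68 ± 0.34 (SE; edgeR adjusted p of 0.489). Without KO replicate 3 it was 0.33, and without KO replicate 2 it was 0.90.

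*Me1*, the cytosolic malic enzyme that supplies NADPH, read 205.4, 76.0 and 112.4 CPM in KO lungs, against 166.0, 86.6 and 74.8 CPM in WT lungs. The first replicate was highest in both groups, and the difference of 0.27 ± 0.46 (SE) on the log2 scale was smaller than its error. *Acaca*, the acetyl-CoA carboxylase that makes malonyl-CoA, differed by 0.02 ± 0.23 (SE) on the same scale, with 44.7 to 67.1 CPM in KO lungs and 43.9 to 66.6 CPM in WT lungs. *Acss2*, which makes acetyl-CoA from acetate, read 16.0 to 19.3 CPM in KO lungs and 9.28 to 17.2 CPM in WT lungs. *Thrsp*, a lipogenic regulator, was low in both groups, at 1.33 to 5.31 CPM in KO lungs and 0.43 to 6.51 CPM in WT lungs.

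The strongest fold changes among the synthesis enzymes were those of a desaturase and an elongase. *Scd1*, the stearoyl-CoA desaturase that makes oleate and palmitoleate, had the highest mean FPKM of the 31 genes, 311 over the 6 libraries (FPKM being scaled for gene length). It read 2649, 1078 and 3000.4 CPM in KO lungs, against 1439.8, 642.3 and 570.2 CPM in WT lungs. KO replicate 2 lay below WT replicate 1, so the groups overlapped. *Scd1* averaged 2243 ± 1024 CPM in KO lungs and 884.1 ± 482.6 CPM in WT lungs (SD, n = 3 each). The log2 fold change was 1.34 ± 0.54 (SE), or 2.54-fold, with an edgeR unadjusted p of 0.0438 and an adjusted p of 0.413.

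Its paralog *Scd2* desaturates the same substrates, and its fold change had the other sign. *Scd2* read 846.9, 515.6 and 905.7 CPM in KO lungs, against 1168, 760.8 and 688.2 CPM in WT lungs. The groups overlapped, and the log2 fold change was -0.21 ± 0.33 (SE; edgeR adjusted p of 0.856). Counts of *Scd1* over counts of *Scd2* in the same library were 3.13, 2.09 and 3.31 in KO lungs, against 1.23, 0.844 and 0.829 in WT lungs. The ratio was 2.93-fold higher in KO lungs and its groups did not overlap, but the pair was picked after the values were seen and is given without a test. The sources used here do not say how reads common to these paralogs were counted.

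*Elovl1*, which lengthens saturated and monounsaturated chains to very long ones, read 445.4, 164.2 and 322.7 CPM in KO lungs, against 170.3, 133.0 and 124.9 CPM in WT lungs. Only KO replicate 2 fell within reach of the WT libraries. *Elovl1* averaged 310.8 ± 141.0 CPM in KO lungs and 142.7 ± 24.2 CPM in WT lungs (SD, n = 3 each). The log2 fold change of 1.12 ± 0.38 (SE), or 2.18-fold, had an edgeR unadjusted p of 0.0224 and an adjusted p of 0.341. *Elovl5*, an elongase of polyunsaturated chains, read 180.9, 175.0 and 217.8 CPM in KO lungs, against 138.7, 170.1 and 154.1 CPM in WT lungs. Those groups did not overlap, and the log2 fold change was 0.31 ± 0.18 (SE; edgeR adjusted p of 0.558).

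The other 3 of this group were *Elovl6*, which lengthens palmitate, and the polyunsaturated fatty acid desaturases *Fads1* and *Fads2*. *Elovl6* was low, at 10.01 to 20.1 CPM in KO lungs and 8.08 to 14.3 CPM in WT lungs. *Fads1* had a log2 fold change of 0.27 ± 0.20 (SE) and *Fads2* of 0.04 ± 0.31 (SE). Of these 7 elongases and desaturases, 6 had fold changes above 0 and the median was 0.31 on the log2 scale.

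**Figure D2:**
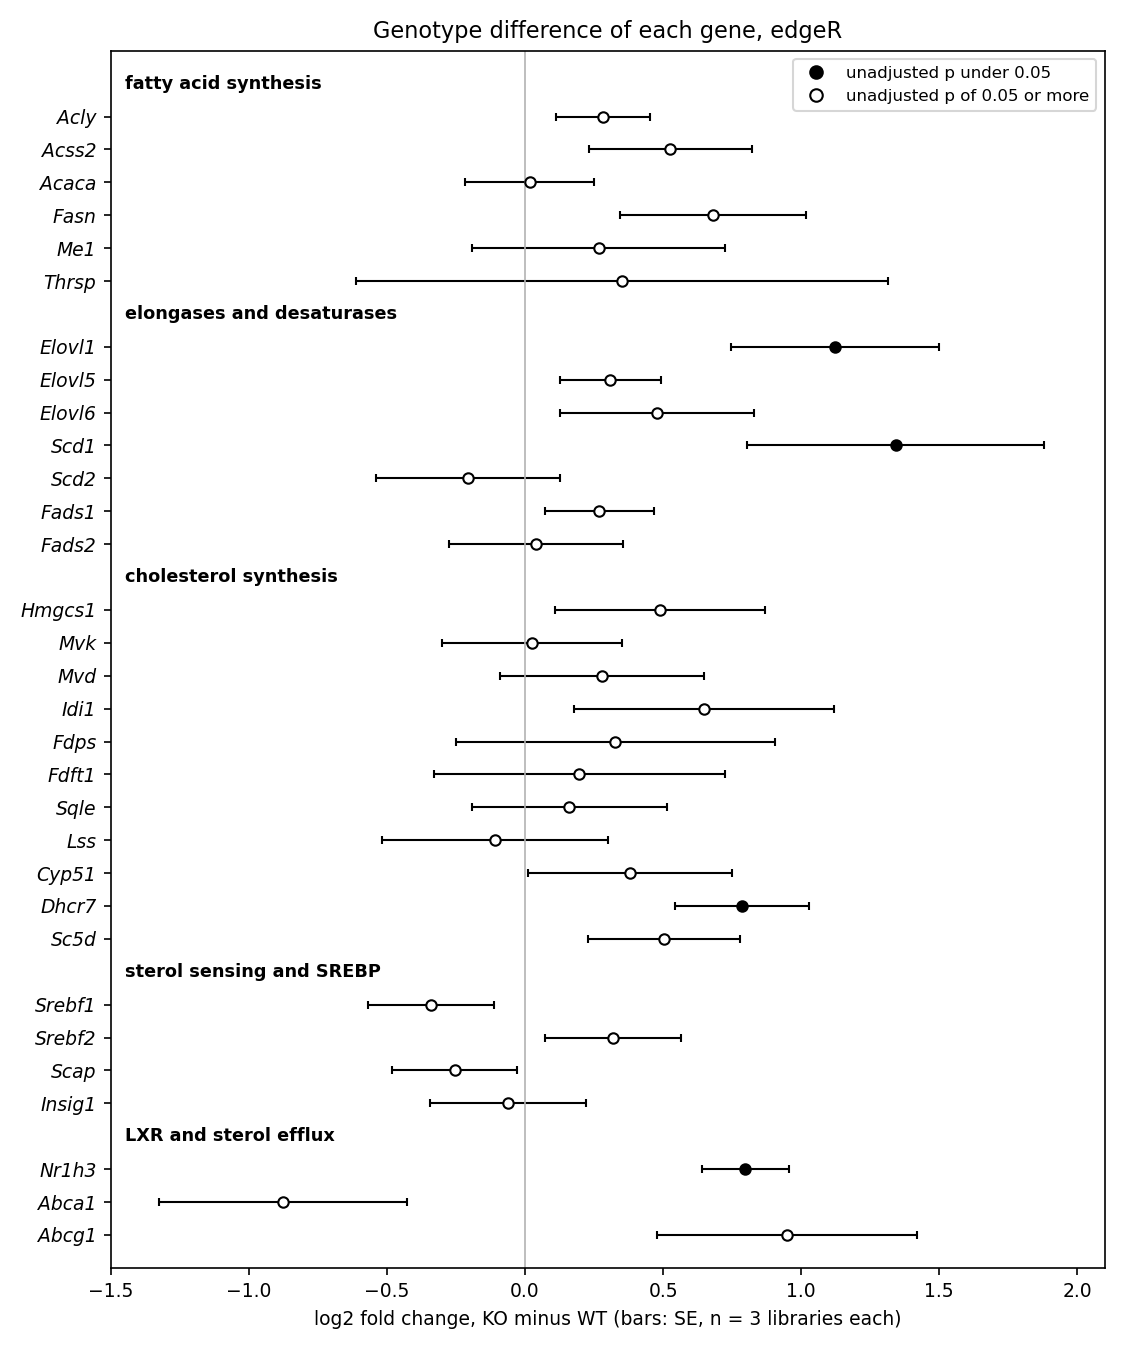
Log2 fold change, KO minus WT, of each of the 31 genes with its SE as a bar, from edgeR over 3 libraries in each group. Filled points have an unadjusted p under 0.05: *Elovl1*, *Scd1*, *Dhcr7* and *Nr1h3*, all right of 0.

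Cholesterol synthesis genes ranked the libraries much alike, and the genotypes overlapped for 10 of the 11. Of the 11 genes, 10 had fold changes above 0, with a median of 0.33 on the log2 scale, and 1 had an unadjusted p under 0.05. That median was 0.12 without KO replicate 1 and 0.67 without WT replicate 1. The highest of the 6 libraries was KO replicate 1 for 7 genes and WT replicate 1 for 4, and the lowest was WT replicate 3 for 10 of the 11. The mean log2 CPM of the 11, centred over the 6 libraries, was 0.62, -0.29 and 0.22 in KO lungs, against 0.40, -0.33 and -0.62 in WT lungs. The groups overlapped on that scale too.

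*Hmgcs1*, the synthase that makes HMG-CoA, read 242.4, 105.8 and 161.7 CPM in KO lungs, against 168.6, 108.0 and 86.8 CPM in WT lungs. *Fdps*, which makes farnesyl diphosphate, read 86.4, 29.2 and 53.5 CPM in KO lungs, against 80.8, 30.98 and 22.9 CPM in WT lungs. The first replicate was highest within each genotype for both genes, and the groups overlapped. Their log2 fold changes were 0.49 ± 0.38 (SE) for *Hmgcs1* and 0.33 ± 0.58 (SE) for *Fdps*. That of *Hmgcs1* was 0.14 without KO replicate 1 and 0.80 without WT replicate 1. *Idi1*, the isopentenyl diphosphate isomerase shown above, had 62.7 to 147.3 CPM in KO lungs and 40.8 to 109.0 CPM in WT lungs, a log2 fold change of 0.65 ± 0.47 (SE) that was 0.30 without KO replicate 1 and 1.22 without WT replicate 1.

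*Dhcr7*, which reduces 7-dehydrocholesterol in the last step to cholesterol, ranked the libraries in another order. It read 23.6, 19.6 and 19.8 CPM in KO lungs, against 8.85, 13.0 and 14.7 CPM in WT lungs. The groups did not overlap, and WT replicate 1, among the 2 highest libraries for most of the other enzymes, was the lowest here. *Dhcr7* averaged 21.0 ± 2.23 CPM in KO lungs and 12.2 ± 2.99 CPM in WT lungs (SD, n = 3 each). Its log2 fold change of 0.79 ± 0.24 (SE), or 1.73-fold, had an edgeR unadjusted p of 0.0155 and an adjusted p of 0.305.

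Among the other 7 enzymes the log2 fold changes lay between -0.11 ± 0.41 (SE) for *Lss* and 0.50 ± 0.28 (SE) for *Sc5d*. *Lss* closes the squalene epoxide made by *Sqle* into lanosterol, and *Sc5d* makes 7-dehydrocholesterol, the substrate of *Dhcr7*. *Mvk* and *Mvd* act on mevalonate, *Fdft1* makes squalene and *Cyp51* demethylates lanosterol. *Fdft1* shares 774 exon bases with *Ctsb*, a far more abundant gene on the opposite strand, and *Fdps* shares 1124 with a gene model on its own strand. *Acss2* shares 395 exon bases with *Gss* and 197 with *Ggt7*, both on the opposite strand. *Cyp51*, *Srebf1* and *Elovl1* share 166, 109 and 53 with opposite-strand genes. Since the sources used here name no strand setting for the counting, the counts of *Fdft1* are uncertain. Those of *Acss2*, *Cyp51*, *Srebf1* and *Elovl1* may be affected too.

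Markers of type 2 alveolar cells moved with the cholesterol synthesis genes from library to library. All 11 markers were tested and all had fold changes above 0, with none at 0 counts. Their summed level was 4154 to 22401 CPM in KO lungs and 2264 to 11657 CPM in WT lungs. Their centred mean log2 CPM was 1.17, -0.48 and 0.88 in KO lungs, against 0.54, -0.84 and -1.27 in WT lungs. It was thus high in the first replicates and KO replicate 3 and lowest in WT replicate 3, like the cholesterol genes. *Elovl1* ranked the 6 libraries in the same order as the type 2 markers. *Scd1* did so too, except that KO replicate 3 lay above KO replicate 1. The other genes at an unadjusted p under 0.05, *Dhcr7* and *Nr1h3*, ranked them otherwise. The order of the type 2 markers was not particular to them. The 6 defining lung markers, *Sftpc* among them, gave 0.83, -0.355 and 0.60 in KO lungs, against 0.58, -0.51 and -1.15 in WT lungs. *Ager* read 1836, 470 and 1065 CPM in KO lungs, against 1726, 482 and 304 CPM in WT lungs. *Cldn5* and *Pecam1* were instead lowest in WT replicate 1. In whole lung, more cells of a type and more RNA per cell cannot be told apart. The part of type 2 or other cells in the result was not tested.

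The 8 alveolar fibroblast and lipofibroblast markers summed to 3608 to 4007 CPM in KO lungs and 1973 to 3031 CPM in WT lungs, and all 8 had fold changes above 0. Only *Tcf21* among them did not overlap between groups (12.5%, against 9.81% of all tested genes higher in KO). The fold changes of *Lpl*, *Fgf10*, *Limch1* and *Plin2* were smaller than their SE. Recruited and lipid-laden macrophage markers, 8 in number, summed to 1960 to 5725 CPM in KO lungs and 7139 to 8823 CPM in WT lungs. Neither pair of summed ranges overlapped, and neither list had a marker at 0. The macrophage sum was mostly *Spp1*, at 2284 CPM on average in KO lungs and 5927 CPM in WT lungs. Of those 8 markers 4 had fold changes above 0, and their centred mean log2 CPM overlapped, at 0.51, -0.23 and -1.002 in KO lungs, against 0.22, 0.11 and 0.39 in WT lungs. Adipocyte markers, 7 of 9 tested, summed to 27.7 to 83.1 CPM in KO lungs and 46.6 to 197.6 CPM in WT lungs, with *Lep* and *Ucp1* at 0 counts in some libraries. The part of any of these cells in the lipid gene values was not tested.

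**Figure D3:**
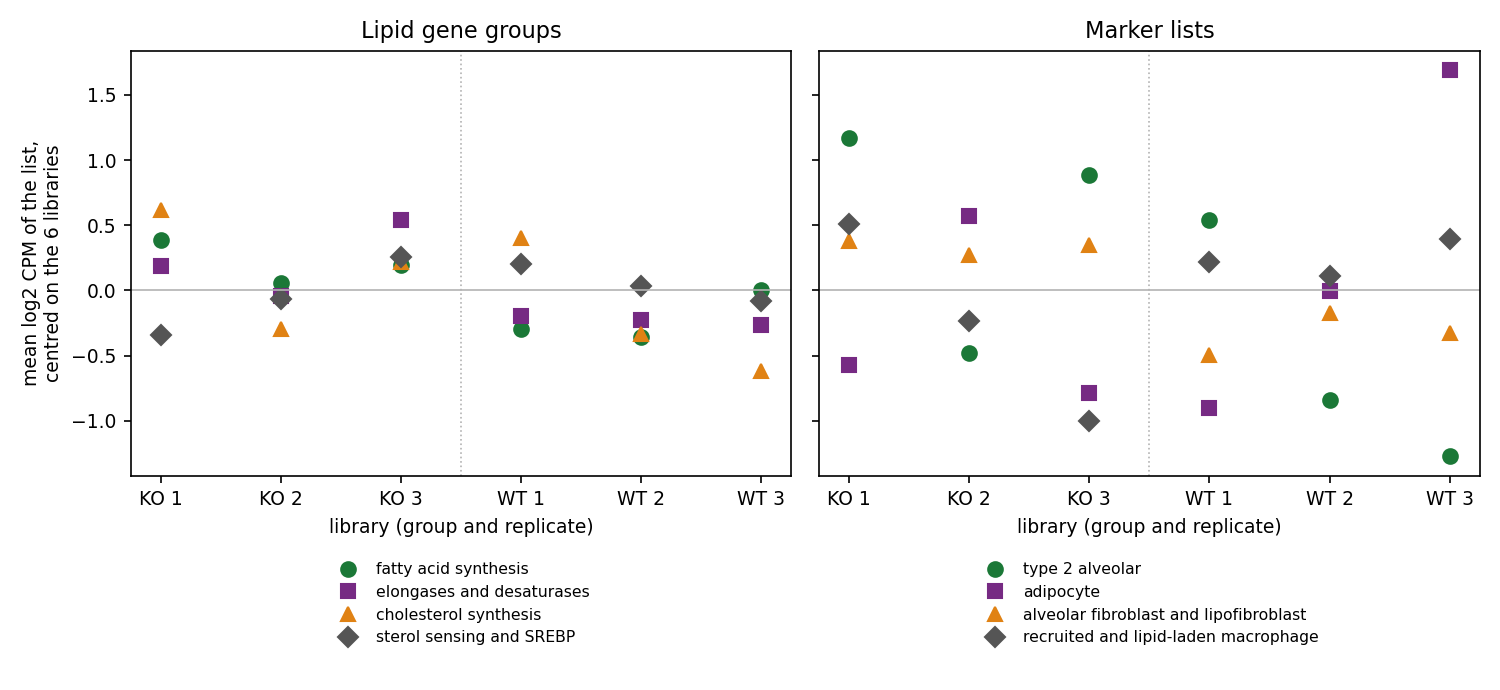
Mean log2 CPM of each gene group per library, centred over the 6 libraries, for the lipid gene groups at left and the cell type marker lists at right. Cholesterol synthesis genes run from 0.62 in KO replicate 1 to -0.62 in WT replicate 3, and type 2 alveolar markers from 1.17 to -1.27 in the same libraries.

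Of the 4 sterol sensing genes, 1 had a fold change above 0, and the median was -0.16 on the log2 scale. Without both first replicates that median was 0.0439, and leaving out 1 library gave -0.27 to -0.0392. *Srebf1*, which encodes the SREBP-1 factors that act mainly on lipogenic genes, read 57.1, 82.6 and 98.8 CPM in KO lungs, against 99.0, 99.99 and 103.0 CPM in WT lungs. The groups were separated by a margin of 98.8 in KO against 99.0 in WT, and the log2 fold change was -0.34 ± 0.23 (SE; edgeR adjusted p of 0.609). The separation was lost in the DESeq2 fit, with scaling to total counts, without the filter on low counts and on FPKM values, and the fold change was -0.15 without KO replicate 1. *Scd1* and *Fasn*, known targets of SREBP-1, had fold changes of 1.34 and 0.68 on the log2 scale.

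*Srebf2*, which encodes the SREBP-2 factor that acts mainly on cholesterol genes, read 123.6, 156.3 and 209.0 CPM in KO lungs, against 151.8, 125.5 and 114.8 CPM in WT lungs. *Insig1*, the retention protein that is itself an SREBP target, read 64.4, 45.2 and 70.2 CPM in KO lungs, against 83.2, 58.7 and 45.6 CPM in WT lungs. The groups overlapped for both genes, and the log2 fold changes were 0.32 ± 0.25 (SE) for *Srebf2* and -0.06 ± 0.28 (SE) for *Insig1*. That of *Srebf2* was 0.10 without KO replicate 3. *Scap*, the escort of the SREBP precursors, read 45.1 to 74.6 CPM in KO lungs and 74.4 to 78.2 CPM in WT lungs.

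The LXR gene *Nr1h3* gave the clearest difference of the 31 genes. It lies at chr2:91184061-91202834 on the minus strand of GRCm38 and encodes LXR-alpha, which is abundant in macrophages. It read 38.8, 37.4 and 38.9 CPM in KO lungs, against 20.5, 21.1 and 24.5 CPM in WT lungs. The groups stood well apart, with little spread among the KO mice. *Nr1h3* averaged 38.3 ± 0.84 CPM in KO lungs and 22.0 ± 2.16 CPM in WT lungs (SD, n = 3 each). The log2 fold change of 0.80 ± 0.16 (SE), or 1.74-fold, had an edgeR unadjusted p of 0.00174 and an adjusted p of 0.216. DESeq2 gave 0.81 on the log2 scale with an adjusted p of 0.00407. Over 17 alternatives the log2 fold change stayed between 0.75 and 0.88, with adjusted p-values between 0.00407 and 0.749.

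The exporters that LXR is known to induce had fold changes of opposite sign. *Abca1*, which loads cholesterol onto lipid-poor apolipoprotein A-I, read 130.6, 257.7 and 142.5 CPM in KO lungs, against 164.9, 339.3 and 470.4 CPM in WT lungs. KO replicate 2 lay above WT replicate 1, so the groups overlapped. The log2 fold change was -0.88 ± 0.45 (SE; edgeR adjusted p of 0.504), and -0.51 without WT replicate 3. *Abcg1*, which exports sterol to mature HDL, read 182.5, 100.8 and 52.2 CPM in KO lungs, against 41.2, 56.9 and 75.6 CPM in WT lungs. Those groups also overlapped, KO replicate 1 was highest, and the log2 fold change was 0.95 ± 0.47 (SE; edgeR adjusted p of 0.489), and 0.40 without KO replicate 1.

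Within a library, *Abca1* counts over *Nr1h3* counts were 3.37, 6.90 and 3.67 in KO lungs, against 8.03, 16.1 and 19.2 in WT lungs. *Abcg1* counts over *Abca1* counts were 1.40, 0.391 and 0.366 in KO lungs, against 0.250, 0.168 and 0.161 in WT lungs. Neither ratio overlapped between groups, with log2 differences of -1.62 for *Abca1* over *Nr1h3* and 1.63 for *Abcg1* over *Abca1*. Both pairs were picked after the values were seen and have no test. Alveolar macrophages are known for high *Abcg1*. Their markers, 8 of 9 tested, summed to 496 to 1648 CPM in KO lungs and 1213 to 1997 CPM in WT lungs, with *Fabp1* at 0 counts in WT replicates 1 and 2. That sum was mostly *Chil3*, at 619.1 CPM on average in KO lungs and 1395 CPM in WT lungs. Of the 8 markers 5 had fold changes above 0, with a median of 0.61 on the log2 scale. *Marco*, *Chil3* and *Fabp4* went the other way, at -0.31, -1.17 and -0.70. *Car4*, *Krt79* and *Ear2* were higher in KO without overlap (37.5%, against 9.81% of all tested genes). DESeq2 called these 3 higher in KO, against 1.91% of the 18630 genes it tested. The centred mean log2 CPM of the 8 markers was 1.17, -0.27 and -0.46 in KO lungs, against -0.29, -0.0163 and -0.13 in WT lungs. KO replicate 1, the highest library for *Abcg1*, was highest here too. KO replicate 2, the next highest for *Abcg1* and above all WT libraries there, lay here below WT replicates 2 and 3. The part of these cells in the values was not tested.

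**Figure D4:**
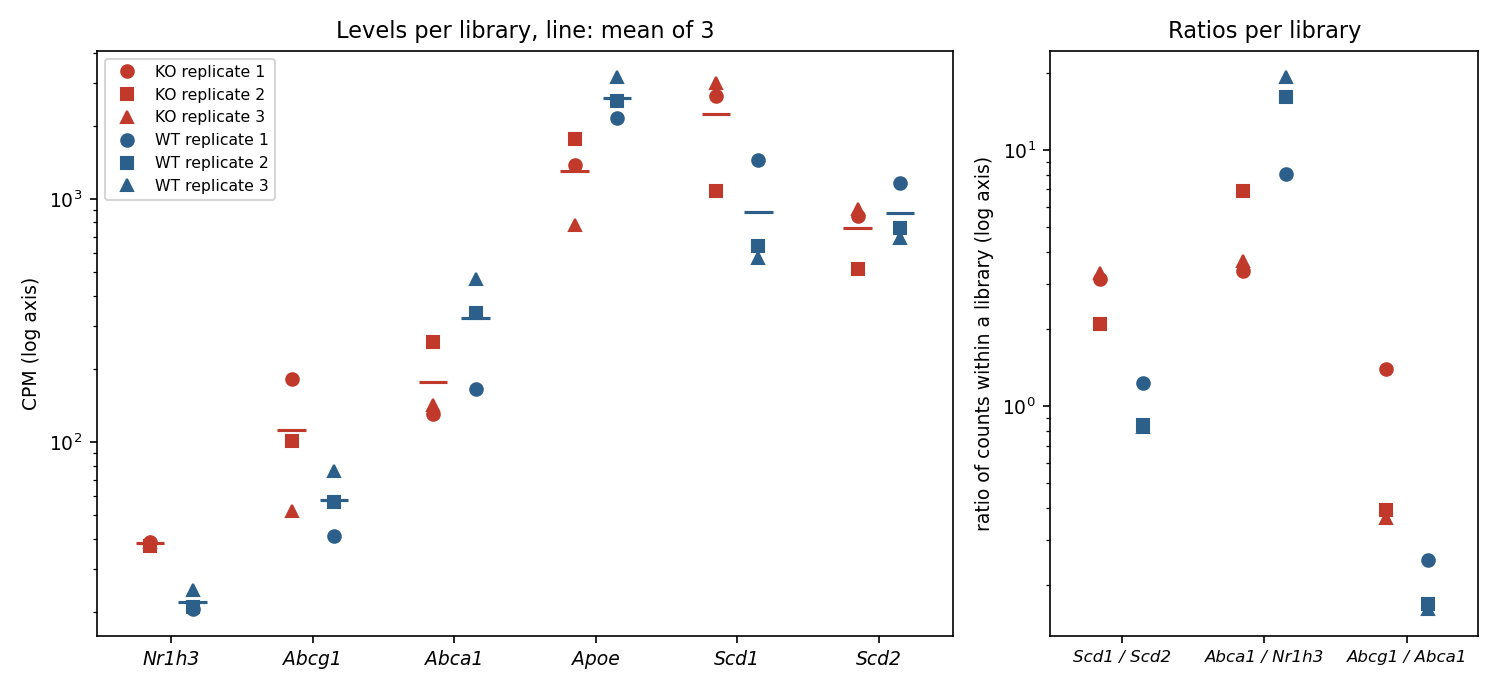
CPM per library on a log axis for the sterol export genes and the *Scd* pair at left, with a line at the mean of 3, and ratios of counts within a library at right, KO in red left of WT in blue. *Nr1h3* sits at 37.4 to 38.9 CPM in KO and 20.5 to 24.5 CPM in WT, and none of the 3 ratios overlaps between groups.

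Other genes of these pathways, taken as 5 lists of 72 genes of which 67 were tested, had fold changes in both directions. Fold changes were above 0 for 35 and below 0 for 32, with a median of 0.03 on the log2 scale. By edgeR's unadjusted p under 0.05, 3 were higher in KO and 4 lower, against 5.95% and 5.89% of all tested genes. None passed the adjusted threshold. DESeq2 called 3 of the 67 lower in KO and 0 higher, against 1.73% and 1.91% of the 18630 genes it tested. The further cholesterol synthesis enzymes had 9 of 11 fold changes above 0, with a median of 0.19 and 0 at an unadjusted p under 0.05. *Msmo1*, a sterol methyl oxidase, read 101.9, 40.2 and 60.7 CPM in KO lungs, against 80.6, 36.2 and 27.6 CPM in WT lungs, the same library order within each genotype as *Hmgcs1*. *Pmvk*, the phosphomevalonate kinase, had 16.8 to 29.0 CPM in KO lungs and 16.5 to 62.1 CPM in WT lungs.

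The list of other fatty acid genes, 11 of 19 with fold changes above 0, held differences in both directions. *Elovl4*, an elongase of very long chains, read 0.22, 0.95 and 0.46 CPM in KO lungs, against 5.96, 3.93 and 2.63 CPM in WT lungs, and DESeq2 called it with an adjusted p of 0.000318. Its edgeR log2 fold change was -2.92 ± 0.63 (SE), at a low level in both groups. *Acsl5*, an acyl-CoA synthetase, read 282.3, 187.4 and 231.6 CPM in KO lungs, against 148.5, 137.5 and 128.5 CPM in WT lungs. The *Acsl5* groups did not overlap, and the log2 fold change was 0.76 ± 0.21 (SE), with edgeR p-values of 0.00941 unadjusted and 0.269 adjusted. *Hacd3*, a dehydratase of the elongation cycle, had a log2 fold change of 0.59 ± 0.24 (SE) and an edgeR unadjusted p of 0.0451, and was 0.36 without KO replicate 1.

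Storage genes included another DESeq2 call. *Dgat2*, which makes triglyceride from diacylglycerol, read 8.59, 8.51 and 9.74 CPM in KO lungs, against 15.9, 15.2 and 15.4 CPM in WT lungs. The groups stood apart with a log2 fold change of -0.79 ± 0.19 (SE) and a DESeq2 adjusted p of 0.0112, against 0.240 in edgeR. *Plin2*, a lipid droplet coat protein, overlapped between groups, at 125.5 to 436.6 CPM in KO lungs and 149.5 to 223.0 CPM in WT lungs. *Npc2*, the lysosomal cholesterol carrier, differed by -0.12 ± 0.62 (SE) on the log2 scale.

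In the list of other LXR, esterification and efflux genes, *Apoe*, an apolipoprotein that macrophages secrete and a known LXR target, lay on the side of *Abca1*. It read 1375, 1767 and 778.3 CPM in KO lungs, against 2154, 2518 and 3164 CPM in WT lungs. The groups did not overlap, and the log2 fold change was -0.999 ± 0.38 (SE), with edgeR p-values of 0.0347 unadjusted and 0.387 adjusted. *Soat1*, which esterifies cholesterol for storage, read 172.4, 135.2 and 125.4 CPM in KO lungs, against 78.5, 90.4 and 109.7 CPM in WT lungs. The *Soat1* groups did not overlap either, and its log2 fold change was 0.64 ± 0.21 (SE), with edgeR p-values of 0.0214 unadjusted and 0.338 adjusted.

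With both first replicates left out, fold changes were above 0 for 26 of the 31 genes. An unadjusted p under 0.05 was then reached by 11 of the 31 (35.5%), against 30% of all genes tested on those 4 libraries. Of the 11, 10 were higher in KO (32.3%, against 15.3% of all genes): *Acly*, *Acss2*, *Elovl1*, *Elovl6*, *Scd1*, *Fads1*, *Idi1*, *Dhcr7*, *Srebf2* and *Nr1h3*. *Abca1* alone was lower, at -1.01 on the log2 scale, against 14.7% of all genes. None of the 31 passed the adjusted threshold, against 0.108% of all genes higher in KO and 0.167% lower, the smallest edgeR adjusted p being 0.0621 for *Nr1h3*. Libraries did not overlap for 14 higher in KO (45.2%, against 31.6% of all genes) and 3 lower (9.68%, against 32.4%). *Scd1* had a log2 fold change of 1.76 and *Idi1* of 0.88 in that subset. Without WT replicate 1 alone, 7 of the 31 (22.6%) had an unadjusted p under 0.05, against 15.6% of all genes, and 11 (35.5%) lay higher in KO without overlap, against 20%. Without KO replicate 1 alone, these were 3 genes (9.68%, against 12.1%) and 7 genes (22.6%, against 19%), and 19 of the 31 fold changes were above 0. *Nr1h3* and *Dhcr7* had an unadjusted p under 0.05 in all 3 of these subsets. With *Acly* and *Elovl5*, they also stayed without overlap. Those genes did not overlap over all the libraries, so leaving some out could hardly change that. The subsets are parts of the same data and give no independent check.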

How the data were processed

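RNA of whole lung was sequenced from 3 KO and 3 WT mice. The authors deposited whole-number read counts per gene, with no normalization, and FPKM values for the same genes. Per the submitters' processing notes, which give no roles, HISAT2 2.0.4, StringTie 1.3.4d and GRCm38 were used. The strand setting, annotation and handling of shared reads are not stated. KO columns in the FPKM table could not be tied to replicate numbers and were used as a group. Each library came from its own mouse, per the design text.

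Counts were tested with edgeR 4.0.16 in R 4.3.3: filterByExpr, TMM scaling, robust quasi-likelihood test of genotype with no covariate, 2-sided, Benjamini-Hochberg adjustment over 16633 genes, threshold 0.05. SE was computed from the fold change and its F statistic, so it is not separate from p. Totals of 31052936 to 34451956 counts make counting error matter mainly for genes of a few CPM. The common biological coefficient of variation was 0.392. Alternatives were DESeq2 1.42.0, limma-voom (limma 3.58.1), other scalings and filters, limma on log2(FPKM + 1) and log2(FPKM + 0.1), a replicate block and libraries left out. Fold changes on the log2(FPKM + pseudocount) scale understate those of low genes. Genes were described by library if their unadjusted p was under 0.05, their groups did not overlap, or they had one of the 2 highest mean FPKM values of their role. Pathway genes were named by smallest unadjusted p, filled by FPKM. A pathway gene that this rule named is not reported here. *Fasn*, *Scd2* and the ratios were chosen after their values were seen. The 31 genes and all lists were chosen with earlier results of these data known. The scripts were tested on simulated counts.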

Additional observations from a re-analysis of the deposited data

How the results depend on the processing

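The 31 genes had 25 fold changes above 0, and 19 to 27 when 1 library was left out. Their median of 0.31 was 0.15 without KO replicate 1, the lowest, and 0.51 without WT replicate 1, the highest. Over all genes, edgeR called 0 in each direction; DESeq2 called 356 higher and 322 lower, edgeR without both first replicates 18 higher and 28 lower, and leaving out 1 library 0 to 1 higher and 0 to 2 lower. Among the 31, DESeq2 called 1. The 4 genes at an unadjusted p under 0.05 became 11 without both first replicates and 2 (without WT replicate 2 or 3) to 7 (without KO replicate 2 or WT replicate 1) with 1 library left out. The 4 genes without overlap and higher in KO became 14 without both first replicates and 4 to 11 with 1 left out, 11 being without WT replicate 1. The 1 such gene lower in KO became 0 with DESeq2, total counts, no filter or FPKM, 2 with a filter of 1 CPM, 3 without both first replicates and 1 to 3 with 1 left out. *Scd1* at 1.34 and *Abcg1* at 0.95 ran from 1.08 to 1.89 and from 0.22 to 1.29 over all settings. Correlations of same-numbered deviations were 0.351, 0.350 and -0.099, and those of differently numbered ones ran from -0.512 to 0.468. Whether replicate numbers pair the libraries is not settled by these values. With the replicate block, 7 of the 31 had an unadjusted p under 0.05, against 20.4% of all genes, and none an adjusted one; it gives no value for overlap.

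Some log2 fold changes changed sign, with main values from -0.47 for *Pmvk* to 0.40 for *Plin2*. Among them were *Thrsp* at 0.35 and *Fdps* at 0.33, above the median of 0.31 for the 31 genes. Without both first replicates, *Thrsp* was -0.50, *Lss* 0.39, *Insig1* 0.15, *Plin2* -0.16, *Pmvk* 0.34 and *Npc2* 0.47. On FPKM, *Lss* was 0.0245 or 0.0349, *Insig1* 0.0187 or 0.0198 and *Npc2* 0.16; *Npc2* was 0.10 by limma-voom and with the block. Leaving out 1 library gave -0.14 to 0.18 for *Acaca*, -0.21 to 0.70 for *Me1*, -0.16 to 1.76 for *Thrsp*, -0.35 to 0.0602 for *Scd2*, -0.17 to 0.26 for *Fads2*, -0.15 to 0.42 for *Mvk*, -0.15 to 0.54 for *Mvd* and -0.12 to 1.06 for *Fdps*. It gave -0.22 to 0.85 for *Fdft1*, -0.0753 to 0.51 for *Sqle*, -0.37 to 0.38 for *Lss*, -0.24 to 0.20 for *Insig1*, -0.34 to 0.72 for *Plin2*, -0.79 to 0.38 for *Pmvk* and -0.46 to 0.80 for *Npc2*. The cause of these changes was not tested.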

Other observations

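Other lipid-handling genes, held in the marker lists, gave no common direction. *Fabp5*, a fatty acid carrier of macrophages and epithelium, read 353.1, 76.5 and 72.6 CPM in KO lungs, against 79.8, 48.3 and 85.3 CPM in WT lungs, so KO replicate 1 alone stood out. *Lpl*, the lipoprotein lipase of lipofibroblasts and macrophages, read 682.6, 895.3 and 441.1 CPM in KO lungs, against 392.6, 760.6 and 762.1 CPM in WT lungs. *Fabp4*, a fatty acid carrier of adipocytes and alveolar macrophages, read 31.3, 16.1 and 6.14 CPM in KO lungs, against 30.0, 15.9 and 41.1 CPM in WT lungs. The groups overlapped for these 3 genes.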
